A study of Mus musculus with 24 samples.

Results

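The enzymes and the transporter described here handle arginine, nitric oxide, polyamines and itaconate in macrophages: Slc7a2, Nos2, Gch1, Ass1, Arg2, Odc1 and Acod1. These 7 genes were chosen by name, and every probe set annotated with only 1 of their symbols was taken, which gave 14 of 45033 probe sets and 7 of the 18193 genes measured. All 7 had at least 1 such probe set: Slc7a2 had 4, Odc1 had 3, Gch1 and Arg2 had 2 each, and Nos2, Ass1 and Acod1 had 1 each. The study cultured macrophages from bone marrow of male mice, 3 per genotype, for 6 days in RPMI1640 with fetal calf serum, and measured their total RNA on Affymetrix arrays. All 4 strains carried the disrupted Il10 allele Il10tm1Cgn, so no group had an intact Il10. B6 was C57BL/6J-Il10tm1Cgn, labelled resistant to colitis, and C3Bir was C3H/HeJBir-Il10tm1Cgn, labelled susceptible. Cdcs1, the colitis locus under study, lies on chromosome 3. BC-R3 was a congenic strain in which C3Bir alleles replace the Cdcs1 region of an otherwise B6 genome. CB-R1 was its reciprocal, mostly C3Bir with a long stretch of chromosome 3 from B6. Each strain had 3 arrays labelled unstimulated and 3 labelled flagellin, whose cells received 1 µg/mL of CBir1 flagellin, a bacterial protein, for the last 4 h. RNA of 3 wells was pooled for each array, and the 8 groups of 3 arrays make 24 arrays. No member gene lies on chromosome 3: in GRCm38.p6, Acod1 and Gch1 are on chromosome 14, Arg2 and Odc1 on 12, Ass1 on 2, Nos2 on 11 and Slc7a2 on 8.

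Arginine is the shared substrate of this set. Slc7a2 carries it into the cell, inducible nitric oxide synthase (Nos2) turns it into nitric oxide and citrulline with the cofactor tetrahydrobiopterin, whose synthesis Gch1 starts, and Ass1 returns citrulline toward arginine. Arg2, the mitochondrial arginase, instead yields ornithine, from which Odc1 makes putrescine, the first polyamine. Acod1 makes itaconate from cis-aconitate of the citric acid cycle. Inflammatory stimuli such as bacterial products and interferons are well known to induce Nos2, Gch1, Slc7a2 and Acod1 in mouse macrophages.

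The bases before the transcription start are shown for Acod1 and Gch1, members that were high on unstimulated arrays 2 and 3 of B6 and C3Bir, Acod1 also on array 1 of B6 and of BC-R3. They come from RefSeq (GRCm38.p6), which here held promoters of 4 members, the other 2 being Ass1 and Odc1. The window was the 250 bases before the start, read 5′ to 3′ on the gene's strand, at chr14:103046762-103047011 (plus strand) for Acod1 and chr14:47189414-47189663 (minus strand) for Gch1. Capitals mark the letters TATAAA or their reverse complement TTTATA.
Acod1: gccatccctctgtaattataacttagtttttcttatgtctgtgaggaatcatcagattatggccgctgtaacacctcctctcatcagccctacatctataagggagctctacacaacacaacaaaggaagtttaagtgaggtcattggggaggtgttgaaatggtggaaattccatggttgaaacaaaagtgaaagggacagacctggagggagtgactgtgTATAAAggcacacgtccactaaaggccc
Gch1: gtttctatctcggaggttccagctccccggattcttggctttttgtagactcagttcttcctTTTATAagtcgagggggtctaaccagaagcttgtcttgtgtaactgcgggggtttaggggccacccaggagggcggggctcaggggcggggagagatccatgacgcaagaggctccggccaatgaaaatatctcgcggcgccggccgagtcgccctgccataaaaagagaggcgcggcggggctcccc
In Acod1 the letters TATAAA lay 28 to 23 bases before the start, and in Gch1 the reverse complement lay 188 to 183 bases before it. TATAAA on either strand was in 12.4% of 32851 promoters of this length. Neither window held GGGA and TCC with 3 bases between them (NF-kB), GAAA and GAAA with 2 bases between them (interferon-stimulated response element), TTCNNNGAA (GAS), TGANTCA (AP-1) or TGACGTCA (CRE) on either strand. Among all these promoters the shares holding them were 3.86%, 2.98%, 7.02%, 6.75% and 1.55% in that order. Only these exact letters were searched, so their absence does not show that a window lacks a site for these factors.

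Values are log2 signals, so a difference of 1 is a doubling, and levels are compared between arrays for a probe set and never between genes. Array medians were 6.55 to 6.64 and lower quartiles 5.29 to 5.42. The mean over 8 macrophage markers, among them Adgre1, Csf1r and Lyz2, was 11.99 to 12.58 on the 24 arrays, and the Il10 probe set gave 6.36 to 8.70. Some arrays labelled unstimulated stood apart. The mean over 17 cytokine genes was 9.76 to 9.81 on B6 unstimulated arrays 2 and 3, 8.42 to 8.53 on C3Bir unstimulated arrays 2 and 3, and 7.27 to 8.01 on the other 20 arrays. These 4 arrays are called the 4 high arrays below. Whether their condition labels are right cannot be told from the files, so "unstimulated" and "flagellin" mean the labels as given, and every direction drawn from the B6 and C3Bir unstimulated arrays holds only under those labels. Leaving the 4 out leaves 1 unstimulated array each in B6 and C3Bir, which limma then assumes to vary like the other groups. Over 28 interferon-stimulated genes the mean was 12.16 to 12.18 on the B6 pair, 10.08 to 10.31 on the C3Bir pair and 9.07 to 11.31 on the other 20 arrays. In such bulk RNA a different share of a cell type and a different amount of RNA per cell cannot be told apart.

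**Figure D1:**
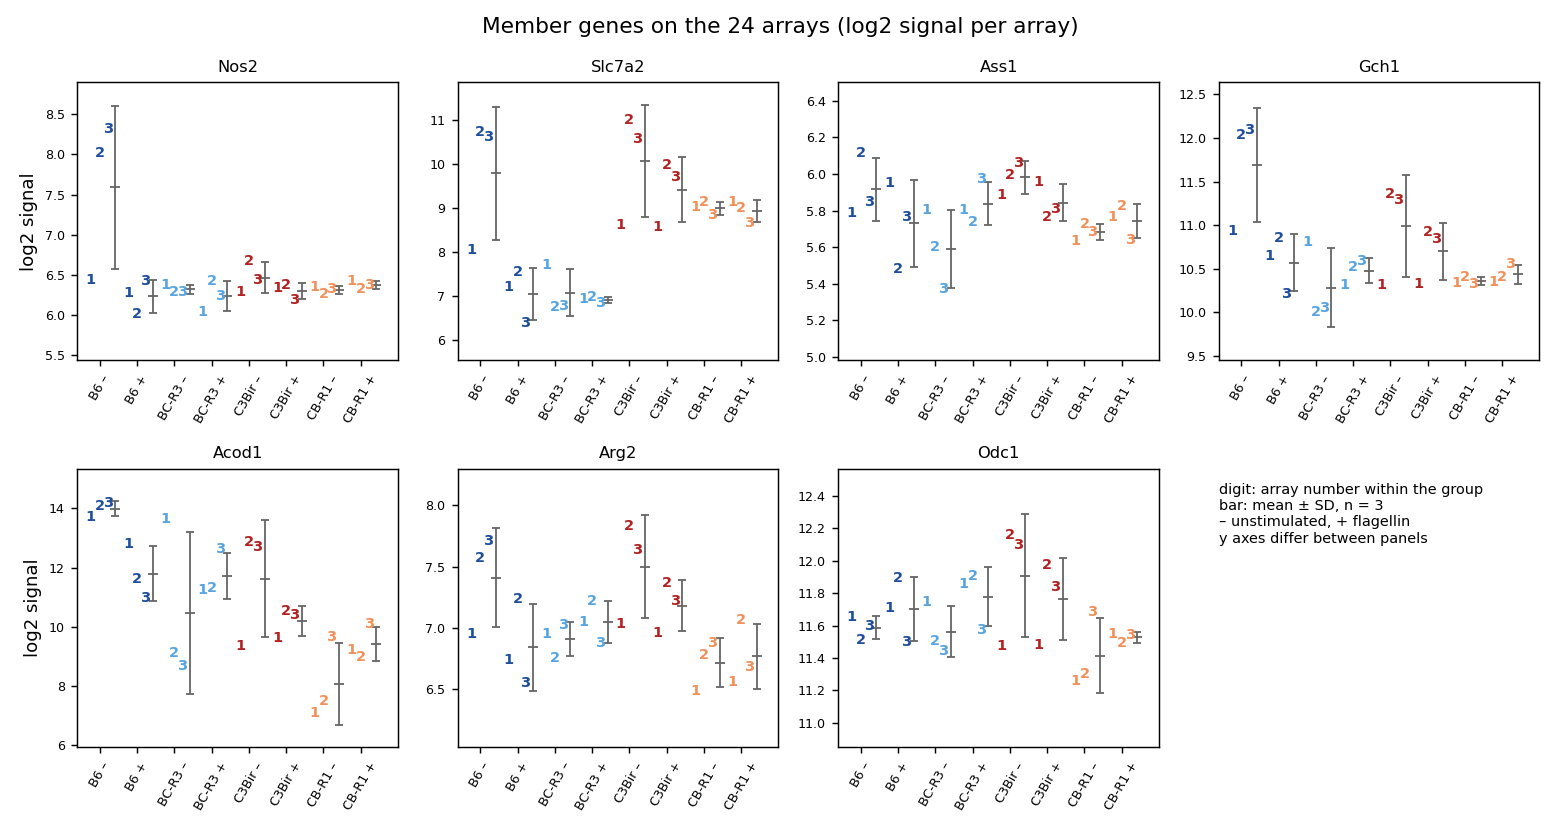
Log2 signal (y axis, its range differing by panel) of the main probe set of each of the 7 genes in the 8 groups (x axis); digits give the array number within a group, and bars the mean ± SD of 3 arrays. Slc7a2 and Gch1 were highest on unstimulated arrays 2 and 3 of B6 and C3Bir, and Nos2 exceeded 8 on B6 unstimulated arrays 2 and 3 alone.

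Slc7a2, the cationic amino acid transporter, separated the strains by background on the flagellin arrays. The unstimulated CB-R1 arrays also lay wholly above the unstimulated BC-R3 arrays. Its brightest probe set gave 8.56, 9.97 and 9.70 on the C3Bir flagellin arrays and 9.13, 8.98 and 8.66 on those of CB-R1. The B6 flagellin arrays had 7.21, 7.54 and 6.38, and those of BC-R3 had 6.91, 6.97 and 6.83. The groups with the C3Bir background thus lay wholly above those with the B6 background. Without flagellin, BC-R3 gave 7.69, 6.75 and 6.77, CB-R1 gave 9.01, 9.12 and 8.82, B6 gave 8.03, 10.71 and 10.60, and C3Bir gave 8.61, 11.00 and 10.57. Arrays 2 and 3 of B6 and C3Bir were the high ones, while array 1 of each lay below the unstimulated CB-R1 arrays. From the highest group mean, 10.06 ± 1.27 in unstimulated C3Bir (SD, n = 3), to the lowest, 6.91 ± 0.07 in BC-R3 with flagellin, 6 of the 7 neighbouring pairs of groups overlapped. The break fell between CB-R1 with flagellin (8.93 ± 0.24) and unstimulated BC-R3 (7.07 ± 0.54).

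Nos2 stood above its usual level on 2 arrays only. B6 unstimulated arrays 2 and 3 had 8.02 and 8.32, while B6 array 1 had 6.43 and the other 21 arrays lay between 6.01 and 6.67. The probe set was below the array median on 21 of the 24 arrays. C3Bir unstimulated arrays 2 and 3, which shared the high cytokine mean, had 6.67 and 6.43 for Nos2. All 7 neighbouring pairs of groups overlapped, from 7.59 ± 1.02 in unstimulated B6 to 6.23 ± 0.21 in B6 with flagellin (SD, n = 3).

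Gch1, whose product GTP cyclohydrolase supplies the Nos2 cofactor, was also highest on the 4 high arrays. B6 had 10.93, 12.04 and 12.09, C3Bir had 10.32, 11.36 and 11.29, BC-R3 had 10.80, 10.00 and 10.04, and CB-R1 had 10.33, 10.41 and 10.33. The 12 flagellin arrays ranged from 10.21 to 10.92, below all 4 high arrays and within the range of the others. Its second probe set gave the same order on the high arrays, with 10.02 on both B6 arrays and 9.48 and 9.42 on the C3Bir arrays, against 9.06 or less on the other 20.

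Ass1, argininosuccinate synthase, was dim throughout. Its probe set lay below the array median on 24 of 24 arrays and ranged from 5.37 to 6.11, so its differences are small differences in a weak signal. A further probe set is annotated with Ass1 and a second symbol and was left out by the rule.

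Arg2 and Odc1 varied little. The brighter Arg2 probe set was 7.57 and 7.71 on the B6 high arrays and 7.83 and 7.63 on the C3Bir high arrays, against 6.49 to 7.37 on the other 20. Odc1 was bright and nearly flat, between 11.26 and 12.16, with its highest values, 12.16 and 12.10, on C3Bir unstimulated arrays 2 and 3. The B6 high arrays had 11.51 and 11.60 for Odc1, within the range of the other arrays. All 7 neighbouring pairs of groups overlapped for each of Gch1, Ass1, Arg2 and Odc1.

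Acod1, the itaconate enzyme, had the widest range of the 7 genes, 7.09 to 14.17. Unstimulated B6 gave 13.70, 14.08 and 14.17, and unstimulated C3Bir gave 9.34, 12.85 and 12.69. Unstimulated BC-R3 gave 13.62, 9.12 and 8.69, and unstimulated CB-R1 gave 7.09, 7.48 and 9.65. Acod1 was thus near its top on array 1 of B6 and of BC-R3, where Nos2 was 6.43 and 6.38 and the mean over the cytokine genes was 7.97 and 8.01. With flagellin the values were 12.80, 11.60 and 10.97 in B6, 11.26, 11.30 and 12.62 in BC-R3, 9.61, 10.54 and 10.41 in C3Bir and 9.23, 8.98 and 10.08 in CB-R1. Group means fell in order from 13.98 ± 0.25 in unstimulated B6 to 8.08 ± 1.38 in unstimulated CB-R1 (SD, n = 3), and only the first step, to 11.79 ± 0.93 in B6 with flagellin, had arrays that did not overlap.

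**Figure D2:**
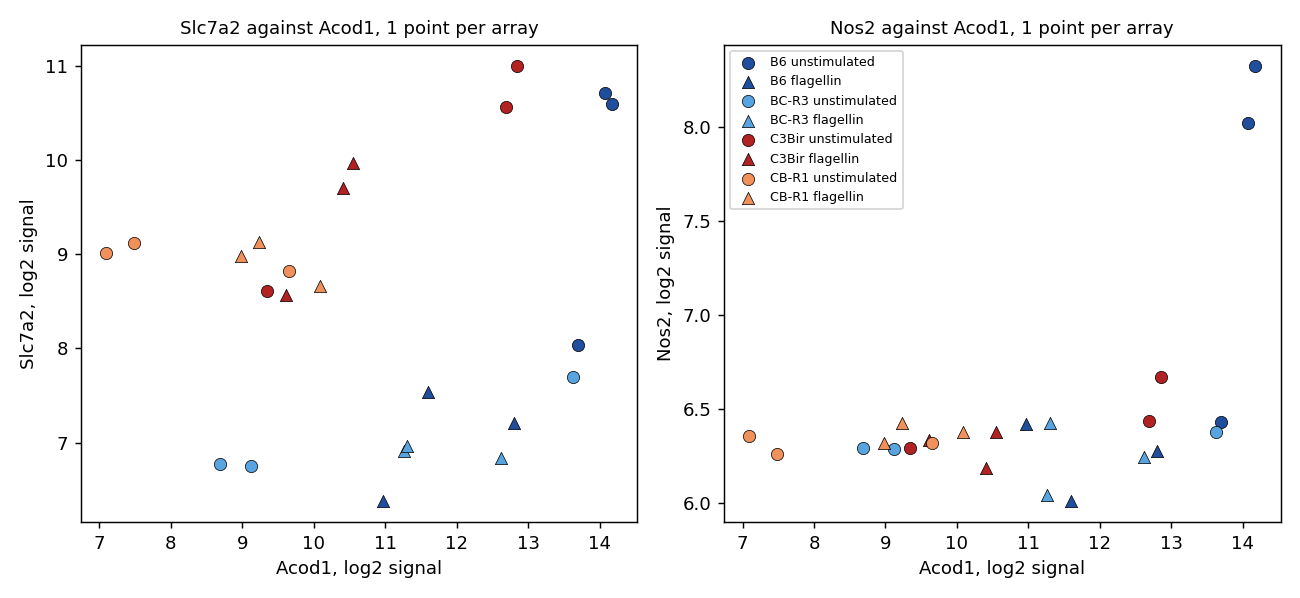
Log2 signal of Slc7a2 (left) and Nos2 (right) on the y axis against that of Acod1 on the x axis, 1 point per array, coloured by strain, circles unstimulated and triangles flagellin. At similar Acod1 signals the arrays with the C3Bir background lie above those with the B6 background for Slc7a2, and only B6 unstimulated arrays 2 and 3 rise above 8 for Nos2.

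Flagellin was compared with no stimulation within each strain. In B6, 3 of the 7 genes were lower on the flagellin arrays, against 9.49% of all genes called lower and 22.4% called in either direction (limma, adjusted p under 0.05). Slc7a2 fell by 2.74 ± 0.59 (log2 ± SE, limma adjusted p = 0.0052), which is 6.67-fold; the difference was -3.61 (12.2-fold) without B6 unstimulated array 1. Gch1 fell by 1.12 ± 0.29 (adjusted p = 0.0117), or 2.17-fold, and Nos2 by 1.36 ± 0.28 (adjusted p = 0.00455), where the flagellin arrays were too dim for a fold. Acod1 differed by -2.19 ± 1.01 (adjusted p = 0.12) and Arg2 by -0.57 ± 0.21 (adjusted p = 0.0618), neither past the threshold, although Arg2 passed in the 3 fits with the replicate number as a block (adjusted p = 0.0233, 0.0306 and 0.0445), and Ass1 and Odc1 differed by -0.18 and 0.11. The arrays of the 2 conditions did not overlap for 4 of the 7 genes, against 29.6% of all genes. Across the 7 genes the median difference was -1.12, and over all genes it was -0.02.

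Those calls in B6 were not made without the 4 high arrays: 0 of the 7 genes and 0 of all genes were called by limma (1293 at an unadjusted p under 0.05), with Slc7a2 at -0.99 (adjusted p = 0.703), Gch1 at -0.36 (adjusted p = 0.78) and Nos2 at -0.20 (adjusted p = 0.759). A limma fit of the 6 B6 arrays alone also called 0 of the 7 and 0 of all genes (unadjusted p under 0.05: 4524). The Gch1 call was also lost on leaving out B6 unstimulated array 2 (adjusted p = 0.0739), B6 unstimulated array 3 (adjusted p = 0.0809) or B6 flagellin array 3 (adjusted p = 0.0516). With all arrays, 11 of 17 cytokine genes and 27 of 28 interferon-stimulated genes were lower with flagellin in B6, against 9.49% of all genes. The mean over 5 stromal markers was 9.04 to 9.57 on the B6 high pair and 7.49 to 9.39 on the other 22 arrays. Its part in the result was not tested.

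In C3Bir, BC-R3 and CB-R1 flagellin changed 0 of the 7 genes and 0.0% of all genes in each strain by limma, although 1432, 1584 and 517 genes had an unadjusted p under 0.05. Leaving out array 1 of the unstimulated BC-R3, C3Bir and B6 groups left only high arrays as unstimulated C3Bir. Flagellin then called 3 of the 7 genes in C3Bir (6.78% of all genes), with Acod1 at -2.58, Slc7a2 at -1.37 and Gch1 at -0.63. Unstimulated C3Bir array 1 itself lay below the C3Bir flagellin means. It had 9.34 against 10.19 for Acod1, 8.61 against 9.41 for Slc7a2 and 10.32 against 10.70 for Gch1. Acod1 alone was called in BC-R3, at 2.82 (4.97% of all genes), and CB-R1 stayed at 0. The BC-R3 array left out had the high Acod1 value, 13.62 against 9.12 and 8.69, so this call rests on the choice of array. For Acod1 the C3Bir difference was -1.44 ± 1.01 (log2 ± SE), while BC-R3 had 1.25 ± 1.01 and CB-R1 had 1.36 ± 1.01, with overlapping arrays each time. Slc7a2 gave -0.65 ± 0.59, -0.16 ± 0.59 and -0.06 ± 0.59 in the same order.

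Whether the flagellin difference itself varied between strains was tested as a difference of differences. Between BC-R3 and B6 it was higher in BC-R3 for 2 of the 7 genes, against 4.16% of all genes higher and 10.5% called: Gch1 by 1.31 ± 0.41 (adjusted p = 0.0462) and Nos2 by 1.27 ± 0.40 (adjusted p = 0.0466). Slc7a2, at 2.57 ± 0.83 (adjusted p = 0.0524), and Acod1, at 3.44 ± 1.43 (adjusted p = 0.113), did not pass, although Slc7a2 did in the 3 fits with the replicate number as a block (adjusted p = 0.0436, 0.0307 and 0.0358). Both calls share the B6 unstimulated arrays with the comparison within B6, and without the 4 high arrays Gch1 was at 0.55 (adjusted p = 0.582) and Nos2 at 0.11 (adjusted p = 0.843). Gch1 passed in 14 of the 36 alternatives and Nos2 in 10 of 36, and most single arrays, of any strain, ended the calls when left out. Between C3Bir and B6 and between CB-R1 and C3Bir, 0 of the 7 genes and 0.0% of all genes were called by limma (unadjusted p under 0.05: 2433 and 894 genes). Without B6 unstimulated array 1, 3 of the 7 were called in the first of these. With unstimulated array 1 of C3Bir and BC-R3 left out as well, 3 of the 7 were called there, against 8.22% of all genes. That fit left only high arrays as unstimulated B6 and C3Bir.

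**Figure D3:**
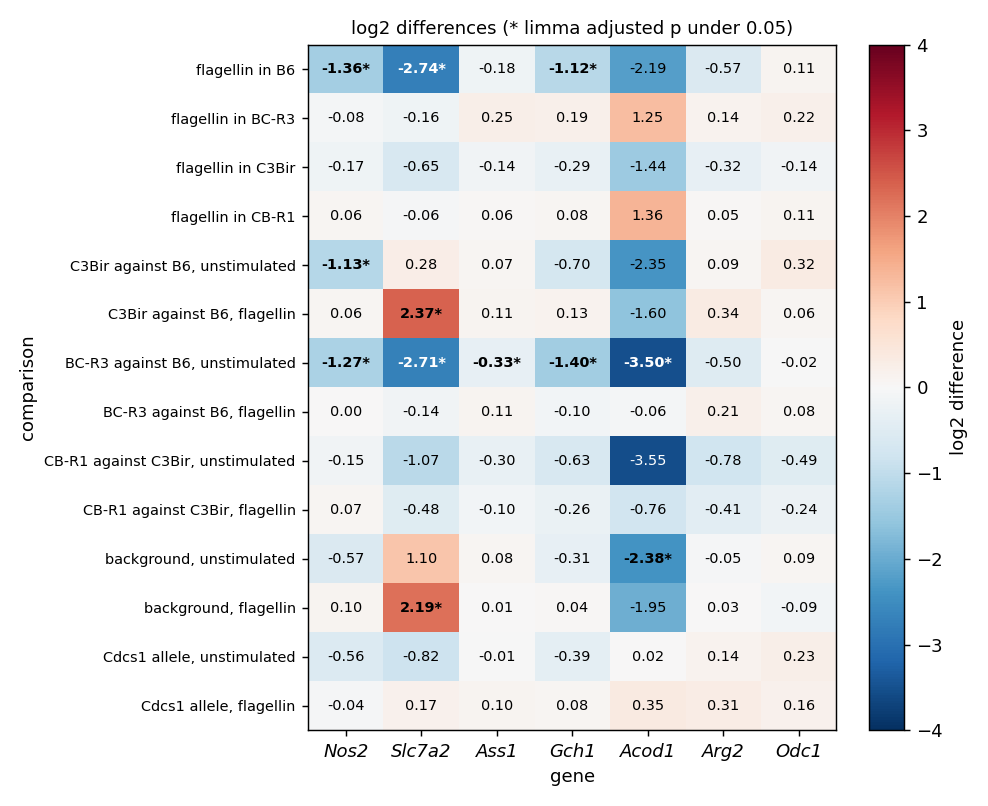
Log2 differences of the 7 genes (x axis) in 14 comparisons (y axis); in each row named X against Y the value is X minus Y, background is C3Bir and CB-R1 minus B6 and BC-R3, and the Cdcs1 allele is C3Bir and BC-R3 minus B6 and CB-R1. Stars mark a limma adjusted p under 0.05: 5 genes were lower in unstimulated BC-R3 than in unstimulated B6, and 0 differed between the same strains with flagellin.

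Comparing BC-R3 with B6 asks what the Cdcs1 region of C3Bir changes on the B6 background. Without flagellin 5 of the 7 genes were lower in BC-R3, against 12.7% of all genes lower and 30.3% called. Acod1 was lower by -3.50 ± 1.01 (log2 ± SE, limma adjusted p = 0.0143), an 11.3-fold difference, and Slc7a2 by -2.71 ± 0.59 (adjusted p = 0.00267), a 6.55-fold difference. The Acod1 value was -5.08 (33.7-fold) without BC-R3 unstimulated array 1, -2.83 (7.09-fold) without array 2 and -2.61 (6.10-fold) without array 3 of that group, and that of Slc7a2 was -3.58 without B6 unstimulated array 1. Gch1 differed by -1.40 ± 0.29 (adjusted p = 0.00191), Nos2 by -1.27 ± 0.28 (adjusted p = 0.00293) and Ass1 by -0.33 ± 0.12 (adjusted p = 0.0384). Without the 4 high arrays none of the 5 passed: Acod1 kept most of its size, at -3.22 (adjusted p = 0.344), while Slc7a2 was at -0.96 (adjusted p = 0.382), Gch1 at -0.65 (adjusted p = 0.349), Nos2 at -0.11 (adjusted p = 0.775) and Ass1 at -0.20 (adjusted p = 0.629). The Acod1 and Ass1 calls were also lost without B6 unstimulated array 3, BC-R3 unstimulated array 2 or BC-R3 unstimulated array 3 (adjusted p from 0.052 to 0.102 for Acod1 and from 0.0655 to 0.226 for Ass1), and that of Ass1 without B6 unstimulated array 2 (adjusted p = 0.2). With flagellin 0 of the 7 genes differed between BC-R3 and B6, against 0.0165% of all genes (662 at an unadjusted p under 0.05), and the differences ran from -0.14 ± 0.59 for Slc7a2 to 0.21 ± 0.21 for Arg2.

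The reciprocal comparison, CB-R1 with C3Bir, asks what B6 alleles on chromosome 3 change on the C3Bir background. The allele brought in is thus the opposite of that in BC-R3 against B6. A gene lower in both comparisons, as Acod1 was without flagellin, therefore went opposite ways by allele. The other members were lower in both as well, by group mean of the main probe set. Both reference groups, unstimulated B6 and C3Bir, hold the high arrays. Without flagellin 0 of the 7 genes were called, against 1.01% of all genes; Acod1 differed by -3.55 ± 1.01 (adjusted p = 0.0744) and Arg2 by -0.78 ± 0.21 (adjusted p = 0.0658), and the 2 groups' arrays did not overlap for 2 of the 7 genes (20.8% of all genes). Without C3Bir unstimulated array 1, which left only high arrays as unstimulated C3Bir, 5 of the 7 were called. In turn 1, 2 and 1 were called without B6 unstimulated array 1, BC-R3 unstimulated array 1 and CB-R1 unstimulated array 3. Shares of all genes are not given for these fits. Leaving out the 4 high arrays instead left array 1 alone as unstimulated C3Bir. Its Slc7a2 value, 8.61, lay below the unstimulated CB-R1 mean of 8.99, and those of Gch1 and Nos2 were also lower. Its values for Acod1, 9.34 against 8.08, and Arg2, 7.03 against 6.72, lay above, as did those of Ass1 and Odc1. The Arg2 value passed with the replicate number as a block (adjusted p = 0.0275). With flagellin 0 of the 7 were called, against 0.055% of all genes. For the Cdcs1 allele across both backgrounds, 0 of the 7 were called without flagellin (3.77% of all genes) and 0 with it (0.0385%). Without B6 unstimulated array 1, 3 were called in the unstimulated comparison, a fit whose share of all genes is not given here. Leaving out unstimulated array 1 of C3Bir and BC-R3 as well left only high arrays as unstimulated B6 and C3Bir. That separate fit called 17.1% of all genes.

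C3Bir and B6, the parental strains, differed in 1 gene in each condition. Unstimulated, Nos2 was lower in C3Bir by -1.13 ± 0.28 (adjusted p = 0.00888), against 16.7% of all genes called, and without the 4 high arrays 1 array of each strain was left, at 6.29 in C3Bir and 6.43 in B6, a difference of -0.14 (adjusted p = 0.853, with the spread taken from the other groups). It was also lost without B6 unstimulated array 2 (adjusted p = 0.0686) or 3 (adjusted p = 0.0813). With flagellin, Slc7a2 was higher in C3Bir by 2.37 ± 0.59 (adjusted p = 0.0168), a 5.16-fold difference, against 6.63% of all genes called. That call was lost without B6 flagellin array 3 (adjusted p = 0.0787), C3Bir flagellin array 2 (adjusted p = 0.089) or C3Bir flagellin array 3 (adjusted p = 0.0712). Acod1 differed by -2.35 ± 1.01 and -1.60 ± 1.01 in the 2 conditions, without passing the threshold.

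Taking both strains of each background together, Slc7a2 with flagellin was higher on the C3Bir background by 2.19 ± 0.42 (log2 ± SE, limma adjusted p = 0.000894), or 4.57-fold, and it was the 1 of the 7 genes called, against 14.9% of all genes. The 6 arrays of C3Bir and CB-R1 spanned 8.56 to 9.97 and the 6 of B6 and BC-R3 spanned 6.38 to 7.54. This call held in all 35 alternatives run, with a highest adjusted p of 0.0209, and none of the 4 high arrays is a flagellin array. In a fit of all probe sets the other 3 for Slc7a2 differed by 0.76 ± 0.32 (adjusted p = 0.154), 0.85 ± 0.36 (adjusted p = 0.151) and 0.60 ± 0.19 (adjusted p = 0.0458), and in each the arrays of the backgrounds did not overlap. The last of these probe sets was dim, below the array lower quartile on 12 and below the array median on 22 of 24 arrays. Unstimulated, Slc7a2 differed by 1.10 ± 0.42 (adjusted p = 0.0748), and without the 4 high arrays it passed (adjusted p = 0.0214).

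**Figure D4:**
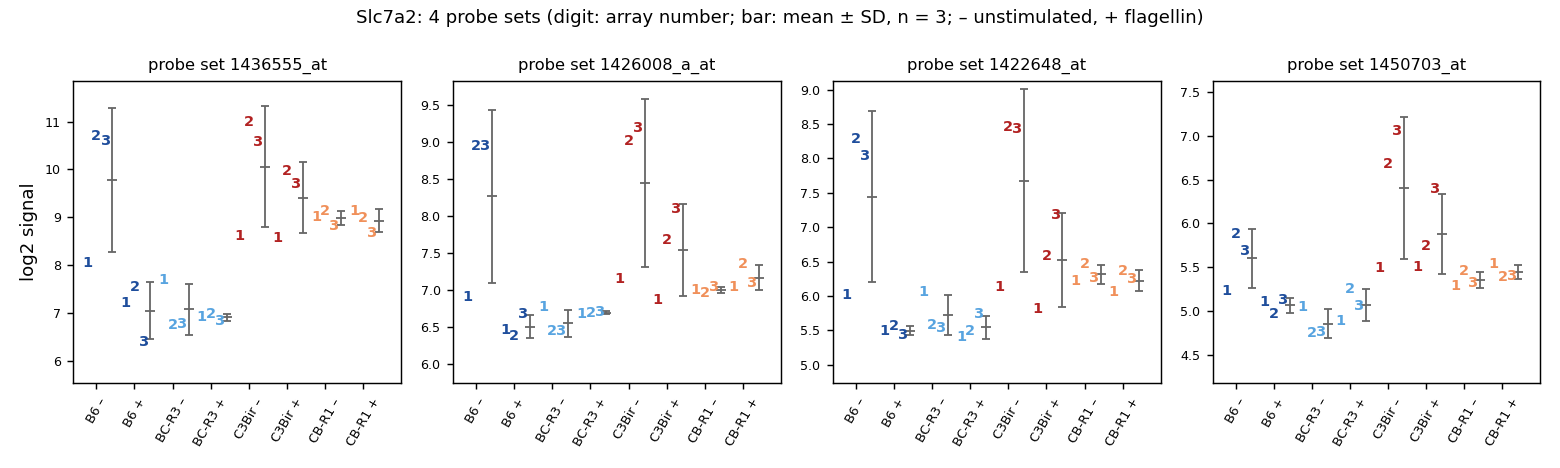
Log2 signal (y axis) of the 4 Slc7a2 probe sets in the 8 groups (x axis); digits give the array number and bars the mean ± SD of 3 arrays. In each probe set the flagellin arrays of C3Bir and CB-R1 lie above those of B6 and BC-R3, with 8.56 to 9.97 against 6.38 to 7.54 in the brightest.

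Markers of other cells also differed by background. Of 7 neutrophil markers 5 were higher on the C3Bir background with flagellin and 7 without it, against 8.74% and 11.2% of all genes. With flagellin the list mean was 11.65 to 12.87 on C3Bir and CB-R1 arrays and 11.15 to 12.04 on B6 and BC-R3 arrays. Over 3 osteoclast markers the means were 8.35 to 8.91 and 7.96 to 8.23; of these Ctsk was higher by 0.90 (adjusted p = 5.8e-06), while Acp5 differed by 0.65 (adjusted p = 0.0983) and Oscar by 0.05. Their part in the Slc7a2 difference was not tested.

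Acod1 went the other way. On the C3Bir background it was lower without flagellin, by -2.38 ± 0.72 (adjusted p = 0.0242), a 5.20-fold difference and the 1 of 7 genes called, against 18.2% of all genes, although the arrays of the backgrounds overlapped. It did not pass without B6 array 3, C3Bir array 1, BC-R3 array 1 or CB-R1 array 1 or 2 of the unstimulated groups (adjusted p from 0.0516 to 0.0788), and was -1.59 (3.01-fold) without BC-R3 array 1. Without unstimulated array 1 of BC-R3, C3Bir and B6 together it was -1.09 (adjusted p = 0.107). With flagellin it differed by -1.95 ± 0.72 (adjusted p = 0.0768); the 6 arrays of C3Bir and CB-R1 spanned 8.98 to 10.54 and lay wholly below the 10.97 to 12.80 of B6 and BC-R3. Slc7a2 and Acod1 were the 2 of 7 genes without overlap there, against 9.23% of all genes. In a fit of those 12 arrays alone Acod1 passed (adjusted p = 0.00104), as it did without unstimulated array 1 of C3Bir (adjusted p = 0.0402) or of BC-R3 (adjusted p = 0.014). The Odc1 probe sets disagreed by background with flagellin, at -0.09, -0.20 and 0.32, none past the threshold.

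Genes around these enzymes were taken from 5 lists, on arginine and nitric oxide, tetrahydrobiopterin, polyamines, itaconate and the citric acid cycle, and regulators, with 87 of 94 genes measured. With flagellin in B6, 23 of the 87 were higher and 6 lower, with a median of 0.13, against 12.9% of all genes higher and 9.49% lower. By list, 2 of 24 arginine and nitric oxide genes, 4 of 6 tetrahydrobiopterin genes, 3 of 12 polyamine genes and 10 of 29 genes of itaconate and the citric acid cycle were higher, and 2 of these 29 were lower. Among 16 regulators 4 were higher and 4 lower. Irf1, an interferon-induced activator of Nos2, fell by 1.45 ± 0.30 (adjusted p = 0.0046), and Rel, an NF-kB subunit, by 0.96 ± 0.31 (adjusted p = 0.0307). Idh1, the cytosolic isocitrate dehydrogenase, was higher by 0.86 ± 0.21, Atp13a2, a lysosomal polyamine exporter, by 0.68 ± 0.15, and the AP-1 subunits Fos and Jun by 0.90 ± 0.26 and 0.67 ± 0.14. Without the 4 high arrays 0 of the 87 were called in B6, as were 0 of all genes (limma; unadjusted p under 0.05: 1293). There Irf1 was at -0.97, Rel at 0.0080, Idh1 at 0.31, Atp13a2 at 0.21, Fos at 0.09 and Jun at 0.29, with adjusted p from 0.69 to 0.993. In the other 3 strains 0 of the 87 were called.

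Unstimulated BC-R3 differed from unstimulated B6 in 34 higher and 7 lower genes of the 87, against 17.6% of all genes higher and 12.7% lower, among them Irf1 at -1.64 ± 0.30 and Rel at -1.15 ± 0.31, against Idh1 at 1.18 ± 0.21 and Jun at 1.05 ± 0.14. Without the 4 high arrays 0 of the 87 and 0.0165% of all genes were called (unadjusted p under 0.05: 2390), with Irf1 at -1.16, Rel at -0.18, Idh1 at 0.63 and Jun at 0.67. That comparison shares its B6 arrays with the flagellin comparison in B6. With flagellin 0 of the 87 differed between BC-R3 and B6.

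By background with flagellin, 11 of the 87 were higher on the C3Bir side and 9 lower, against 8.74% of all genes higher and 6.17% lower. Rab32, a small GTPase that takes part in delivering itaconate to vacuoles that hold bacteria, was lower by -0.87 ± 0.11 (adjusted p = 8.5e-06), with 10.10 to 10.83 on the B6 flagellin arrays and 9.43 to 9.64 on those of C3Bir. Gchfr, the feedback regulator of the Gch1 product, was higher by 0.54 ± 0.07 (adjusted p = 9.88e-06), while Gch1 itself differed by 0.04 ± 0.20. Gatm, which takes arginine into creatine synthesis, was higher by 0.85 ± 0.25 (adjusted p = 0.0266), and Slc7a7, an arginine exporter, by 0.41 ± 0.12 (adjusted p = 0.0306). Nr1h3, the oxysterol receptor LXRα, was lower by -0.79 ± 0.19 (adjusted p = 0.00607), and Mmut, methylmalonyl-CoA mutase, was higher by 0.41 ± 0.07. Without flagellin the counts were 9 higher and 10 lower, against 11.2% and 7.09% of all genes, with Rab32 at -0.96 ± 0.11 and Gatm at 0.99 ± 0.25. Without the 4 high arrays these counts were 5 and 8, and Rab32 (-1.05, adjusted p = 0.000125) and Gatm (0.97, adjusted p = 0.0167) still passed.

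Similarity of pattern was measured as Pearson's r over the 24 arrays, which share strains and the 4 high arrays. Nos2 was most like Il6, at 0.98, but over the other 20 arrays that value was 0.26. Acod1 was most like Ehd1, Tlr2 and Nfkbia, each at 0.98 over 24 arrays, with 0.97, 0.98 and 0.98 over the 20. Slc7a2 was most like Dusp16 at 0.97, Ccrl2 at 0.93 and Acp5 at 0.92, with 0.94, 0.87 and 0.84 over the 20. For Gch1 these were Cd274 at 0.97, Nfe2l1 and Fabp3 at 0.96, with 0.86, 0.93 and 0.86 over the 20. For Arg2 they were Plk2 at 0.86, Gadd45b at 0.85 and Cxcl1 at 0.84, with 0.67, 0.56 and 0.50 over the 20. The highest value for Ass1 was 0.81, with Igdcc3, Kcnn2 and Qrich2 nearest, and for Odc1 it was 0.79, with Rims3, Utp18 and Atf5 nearest. Over the 20 arrays Igdcc3 had 0.87 with Ass1 and Rims3 had 0.64 with Odc1.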

How the data were processed

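The deposited table holds log2 values per Affymetrix probe set for 24 arrays. The steps by which the authors computed and normalized them are not stated in the labels or the table. Of 45037 probe sets, 45033 had values; a table of GEO's platform annotation gave 34945 a single symbol and 932 several, which were left out. For 18193 genes the brightest probe set on average stood for the gene, with no filter and no further normalization.

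With limma 3.58.1 in R 4.3.3, a model of 8 group means used all 24 arrays, with 16 residual and 3.99 prior degrees of freedom after eBayes. Tests in 17 comparisons were two-sided, adjusted by Benjamini-Hochberg over all genes, and called at an adjusted p under 0.05. The model was tested on simulated data. Arrays are numbered 1 to 3 in each group without being tied to mice in the labels. The p-values therefore reflect only how much these arrays vary, and 3 arrays per group limit the precision. Deviations of equally numbered flagellin and unstimulated arrays correlated at 0.31 to 0.48 in C3Bir and 0.30 to 0.50 in CB-R1. In B6 they correlated at -0.35 to 0.11 and in BC-R3 at -0.54 to 0.31. Unequally numbered arrays reached 0.23 in C3Bir, 0.10 in CB-R1, 0.33 in B6 and 0.56 in BC-R3. Whether equal numbers mark a pair therefore cannot be told in any strain.

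Named genes were the 7 members, up to 6 called list genes with the largest change per comparison, and the 3 genes most correlated with each member; markers were named where a result touched them. The members, the lists and the exclusions of arrays were chosen with earlier results of these data known. Alternatives were other normalizations, filters and probe set rules, eBayes options, a fit of the compared arrays, blocks by replicate number and leaving out arrays.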

Additional observations from a re-analysis of the deposited data

Results flagged for a closer look

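By the test of the difference itself, the flagellin difference was unequal in BC-R3 and B6 for 8 of the genes named. Each value is BC-R3 minus B6 on the log2 scale (limma adjusted p under 0.05). In this test 10.5% of all genes were called, and of the 87 list genes 1 was higher and 10 lower. The surrounding genes named are only the 6 of these with the largest change. The members among the 8 were Nos2, at 1.27, and Gch1, at 1.31. Among the surrounding genes Irf1 was at 1.42, Idh1 at -1.32 and Jun at -0.99. Slc25a15, the mitochondrial ornithine carrier, was at -0.74, and the polyamine transporters Atp13a2 and Atp13a3 were at -0.72 and -0.57. All 8 comparisons use the B6 unstimulated arrays, of which arrays 2 and 3 had the highest cytokine means, and without the 4 high arrays 0 of the 8 passed.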

How the results depend on the processing

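The 14 called values of the members kept their sign in every alternative run, and 126 of 159 stayed past the threshold in alternatives other than leaving out 1 array, as did 278 of 336 on leaving out 1 array. Of 105 values not called, 85 of 3719 alternative fits passed. The cause of the changes was not tested. Without the 4 high arrays the members called became 0 for flagellin in B6, 0 for C3Bir and 0 for BC-R3 against B6 unstimulated, 2 for background unstimulated and 0 for the flagellin change of BC-R3 against B6. In that setting Rel with flagellin in B6 turned to 0.0080 and Fos in unstimulated BC-R3 against B6 to -0.065. A fit of the compared arrays alone, with fewer samples, gave 0 for the same 3 comparisons, 0 for background unstimulated, 2 for background with flagellin and 0 for the change of BC-R3 against B6. Leaving out array 1 of the unstimulated BC-R3, C3Bir and B6 groups, flagellin called 5 members in B6, 3 in C3Bir and 1 in BC-R3, and 34.5%, 6.78% and 4.97% of all genes. In that setting C3Bir against B6 had 3 unstimulated, CB-R1 against C3Bir 5, background 2 without and 2 with flagellin, and the allele 4 unstimulated. The flagellin change then called 6 in BC-R3 against B6, 3 in C3Bir against B6 and 1 in CB-R1 against C3Bir. Background unstimulated called 2 under quantile normalization, median centring and the filter on low values. The change of BC-R3 against B6 called 0 under quantile normalization, all probe sets and eBayes with trend and robust options. With probe sets averaged per gene, C3Bir against B6 with flagellin called 0 (Slc7a2 at 1.31, adjusted p = 0.0876).

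With the replicate number as a block, CB-R1 against C3Bir unstimulated called 1 member (Arg2) and background unstimulated 2, with Nos2 added (adjusted p = 0.0492). Under the 3 forms of the replicate block, Arg2 with flagellin in B6 passed (adjusted p of 0.0233, 0.0306 and 0.0445), as did Slc7a2 in the flagellin change of BC-R3 against B6 (0.0436, 0.0307 and 0.0358). The flagellin comparisons in C3Bir and CB-R1 still called 0.

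Leaving out 1 array at a time, the members called ranged from 2 to 4 for flagellin in B6, 0 to 2 for C3Bir against B6 unstimulated and 0 to 1 with flagellin (0 without B6 flagellin 3, C3Bir flagellin 2 or C3Bir flagellin 3). They ranged from 3 to 6 for BC-R3 against B6 unstimulated, 0 to 5 for CB-R1 against C3Bir unstimulated, 0 to 3 for background and 0 to 3 for the allele unstimulated, and 1 to 2 for background with flagellin. For the flagellin change C3Bir against B6 ranged from 0 to 3, and BC-R3 against B6 from 0 to 5. The other comparisons stayed at 0. Shares of all genes are not given for these fits, so the ranges describe only how far the calls depend on single arrays.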
